A study of Saccharomyces cerevisiae with 6 samples.

Results

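Autophagy delivers cytoplasm to the vacuole, the lysosome of yeast, and the vacuolar proteases break it down. Transcripts of these genes were compared between bas1 mutants, ino4 mutants and the wild type (WT) of Saccharomyces cerevisiae, in cultures sampled at 4 h in meiosis. A gene was taken as a member when its name in the deposited table was ATG followed by a number, or was PEP4, PRB1, PRC1, CPS1, LAP4, APE3, VPS30 or VAC8. This gave 33 of the 6932 entries of the table, 25 with an ATG name and 8 others, and the rule uses names only, though it was set with earlier results of these data known.

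The 6 samples were 2 WT, 2 bas1 and 2 ino4 cultures, all grown in a rich medium with acetate and then moved to 2% potassium acetate alone. The labels call the mutants bas1 and ino4 and do not state the alleles, and the strain background is not given in the sources used here. Bas1 is a Myb-related activator of purine and histidine synthesis genes, and Ino4 is a helix-loop-helix activator of phospholipid synthesis genes. The authors' table gives 1 FPKM value (fragments per kilobase, normalized to the library's mapped fragments) per gene and genotype, in which the 2 samples are combined. The spread between samples is therefore unknown, no difference has a replicate check, and no test was made. Neighbouring levels or small differences cannot be ordered beyond a spread that is not known. The read depth behind each value is unknown as well.

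Starved yeast cells that enter meiosis rely on autophagy for amino acids, and diploids that lack it do not form spores. A kinase complex around Atg1 starts the process, vesicles carrying Atg9 and a lipid kinase build the membrane, and the ubiquitin-like protein Atg8 is attached to lipid on it. The closed autophagosome fuses with the vacuole, where proteinase A (Pep4) activates the other vacuolar proteases and the products are exported to the cytosol. Selective forms of the pathway carry chosen cargo, and in growing cells the same machinery delivers the aminopeptidase Ape1, which LAP4 encodes.

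The promoters of 4 members are shown because these genes carry the results: CPS1 had the largest difference between genotypes, ATG5 the second largest, ATG8 the highest level in WT, and PRB1 the highest level among the proteases. Each runs from 250 bases before the start codon to 50 bases into the gene, 5′ to 3′ on the coding strand, from the RefSeq genome R64, a different build from the table's sacCer2 and not necessarily the sequence of the strains used. CPS1 lies at chrX:97487-97786 on the plus strand, ATG5 at chrXVI:271060-271359 on the plus strand, ATG8 at chrII:80682-80981 on the minus strand and PRB1 at chrV:41904-42203 on the minus strand. Capitals mark matches on either strand to 6 short motifs that were searched, TGACTC (the core bound by Bas1 and Gcn4), CATGTG (the core bound by Ino2 and Ino4), GGCGGC (bound by Ume6), AGGGG (the stress response element), GATAAG (bound by GATA factors of nitrogen control) and CACAAA (core of the middle sporulation element).
CPS1: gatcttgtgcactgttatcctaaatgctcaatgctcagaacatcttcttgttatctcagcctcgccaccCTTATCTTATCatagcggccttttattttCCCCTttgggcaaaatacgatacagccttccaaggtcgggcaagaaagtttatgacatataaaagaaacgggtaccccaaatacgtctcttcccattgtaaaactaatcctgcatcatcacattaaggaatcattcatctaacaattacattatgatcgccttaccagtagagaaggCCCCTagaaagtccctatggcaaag
ATG5: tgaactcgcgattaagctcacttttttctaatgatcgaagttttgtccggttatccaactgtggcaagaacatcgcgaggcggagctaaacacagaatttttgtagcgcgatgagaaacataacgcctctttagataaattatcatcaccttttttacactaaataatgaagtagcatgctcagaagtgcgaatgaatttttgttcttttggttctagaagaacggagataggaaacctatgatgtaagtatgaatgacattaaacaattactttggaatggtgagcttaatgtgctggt
ATG8: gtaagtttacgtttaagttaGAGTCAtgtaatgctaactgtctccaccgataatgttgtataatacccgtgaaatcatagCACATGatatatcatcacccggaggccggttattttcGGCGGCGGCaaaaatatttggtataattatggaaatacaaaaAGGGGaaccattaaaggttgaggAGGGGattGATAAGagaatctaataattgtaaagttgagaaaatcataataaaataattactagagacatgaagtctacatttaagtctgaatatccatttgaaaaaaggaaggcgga
PRB1: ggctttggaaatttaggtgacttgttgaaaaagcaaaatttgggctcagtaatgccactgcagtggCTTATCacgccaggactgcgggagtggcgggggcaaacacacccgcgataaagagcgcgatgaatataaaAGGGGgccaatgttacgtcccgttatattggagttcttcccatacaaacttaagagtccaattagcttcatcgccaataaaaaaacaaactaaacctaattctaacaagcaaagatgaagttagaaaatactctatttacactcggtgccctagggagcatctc

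The ATG8 window held 5 of the 6 motifs, including 2 overlapping GGCGGC matches, 1 TGACTC match and 1 CATGTG match. The CPS1 window held 2 GATAAG matches that overlap by their end bases, read on the opposite strand, with first bases at -181 and -176 from the start codon, and no TGACTC match. The ATG5 window held no match to any of the 6. These matches describe letters only, and an absent match says nothing about a factor.

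Across the 33 member promoters, TGACTC was found in 7 (21.2%), against 7.98% of 6001 promoters of the same length in the genome. The 7 belonged to ATG4, ATG8, ATG10, ATG13, ATG21, ATG29 and VAC8, so they did not include CPS1 or ATG5, the members with the largest differences in bas1. The ATG10 match starts at base 45 of the gene, and the ATG13 match starts at -5 and reaches into the start codon. CATGTG was found in 2 members, ATG7 and ATG8 (6.06%, against 6.93%). GATAAG was found in 10 (30.3%, against 14.7%) and AGGGG in 12 (36.4%, against 21.6%), among them CPS1, PRB1 and PRC1 for both motifs. The AGGGG match of VPS30 starts at base 25 of the gene. GGCGGC was found in ATG8 and ATG19 (6.06%, against 5.13%) and CACAAA in 4 members (12.1%, against 18.8%). The motifs were chosen with the values known, and no test was made of these shares.

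Levels of 10 meiotic marker genes, among them the inducer gene IME1 and the recombinase gene DMC1, ranged from 83.9 to 7919 FPKM in WT. All were above 0 in every genotype, which cannot by itself show meiotic identity. The matched genes repressed in diploids, given below, were above 0 as well. The summed FPKM of the 10 markers was 17364 in WT, against 19088 in bas1 and 16280 in ino4. The lower sum in ino4 rests on IME1, at 7919 in WT and 6261 in ino4. Of the 10 markers 5 were higher in ino4, against 49.4% of all entries, and 5 lower. In bas1 9 of the 10 were higher than in WT, against 50.6%, with a median of 0.22, against 0.01 over all entries. IME1, at 0.01, and HOP1, at 0.06, count among the 9. All 10 markers have entries over 1000 bp, and entries of 1000 bp and over had a median of 0.05 in bas1. NDT80, the gene of the activator of middle sporulation, had 282 FPKM in WT, against 525 in bas1 and 277 in ino4, so it moved with bas1. The part of these markers in the differences below was not tested. Of 7 genes repressed in diploids, 6 were matched, with a summed FPKM of 464 in WT, against 370.1 in bas1 and 825 in ino4. MFA1 and MFA2, the a-factor genes with short entries, carry that sum. Of the 6 genes 4 were lower in ino4 (median -0.03), against 50.6% of all entries. In bas1 4 were higher (median 0.17), also against 50.6%. The labels were checked at the targeted genes. BAS1 was at 0.00985 FPKM in bas1, against 19.4 in WT, and INO4 was at 0.339 in ino4, against 307 in WT. In such cultures fewer cells of a kind and less RNA per cell cannot be told apart.

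Most members were well expressed. All 33 members passed the filter on low values, an FPKM of at least 1 in some genotype and above 0 in all 3, which 6153 entries passed. The median member had 128 FPKM in WT, 111 in bas1 and 114 in ino4, against 53.5, 53.6 and 53.6 over all entries compared. These medians fall on different genes, ATG21 in WT, VPS30 in bas1 and ATG15 in ino4. They do not give a change of the members, whose median difference by gene was -0.03 in bas1 and 0.07 in ino4. In WT 29 of the 33 lay above the median of all entries, and 27 did so in each mutant. The same 5 genes, ATG8, PRB1, PEP4, PRC1 and APE3, were above an FPKM of 1000 in every genotype, a level passed by 2.84% of entries in WT. ATG10 was the lowest member in each genotype and ATG2 the next, and the highest WT level was 327-fold the lowest.

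**Figure D1:**
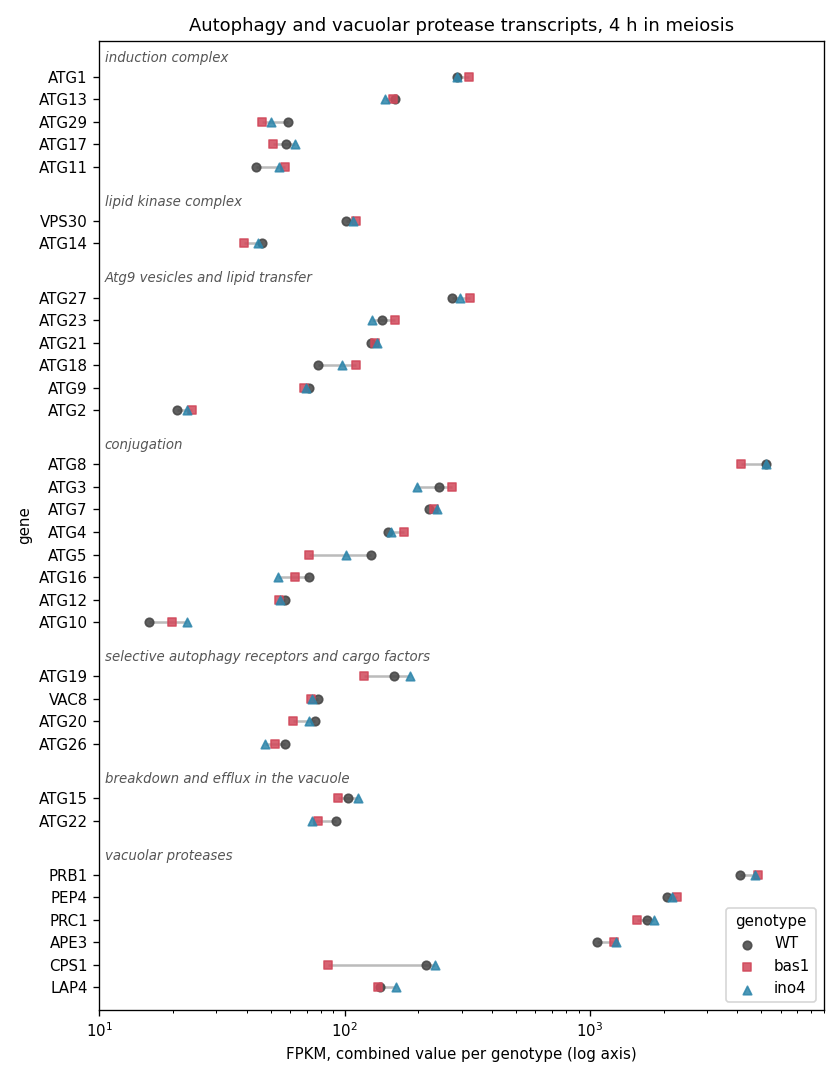
FPKM (log axis) of the 33 members by role, with 1 combined value for WT (circles), bas1 (squares) and ino4 (triangles) joined by a line over their range. ATG8, PRB1, PEP4, PRC1 and APE3 lie above 1000 in all genotypes, and the longest line is that of CPS1, from 85.9 in bas1 to 233 in ino4.

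The members differed between genotypes about as much as other genes did, and the largest ranges were those of CPS1 (2.71-fold), ATG5 (1.78-fold) and ATG19 (1.54-fold). Between the highest and the lowest genotype the median member differed 1.19-fold, against 1.26-fold for the median entry. A gene was called at least 2-fold apart when its difference in log2(FPKM + 1) was 1 or more in size, and the same scale is used for all differences given here. In bas1 against WT, 1 of 33 members was at least 2-fold lower, against 2.34% of all entries, and 0 were at least 2-fold higher, against 0.975%. In ino4 against WT, 0 members were at least 2-fold lower, against 1.76% of entries, and 0 higher, against 0.683%. Between the mutants, 1 member was at least 2-fold lower in bas1 and 0 higher, against 2.78% of entries in each direction. With 33 members these shares are near the background. That background is not matched to the members in length or level. Of the members 0 have entries under 300 bp and 26 have entries of 1000 bp and over. In bas1 13.6% of all entries in the first class and 1.58% in the second were at least 2-fold lower. At 1.5-fold, 2 members were lower in bas1 than in WT, CPS1 and ATG5, against 7.33% of entries, and 0 were higher, against 3.98%. In ino4 0 were lower at 1.5-fold, against 4.62%, and 0 higher, against 2.32%. Between the mutants CPS1 and ATG19 were 1.5-fold lower in bas1, against 8.22% of entries, and 0 were higher, against 6.79%.

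Directions were mixed. Of the 33 members 15 were higher and 18 lower in bas1 than in WT, with a median difference of -0.03, against 0.01 over all entries, of which 50.6% were higher. In ino4, 18 were higher and 15 lower, with a median of 0.07, against 0.00 over all entries, of which 49.4% were higher. The size of the differences also lay near that of all entries, with a median absolute difference of 0.18 against 0.21 in bas1 and 0.13 against 0.16 in ino4. Both comparisons use the same WT values.

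**Figure D2:**
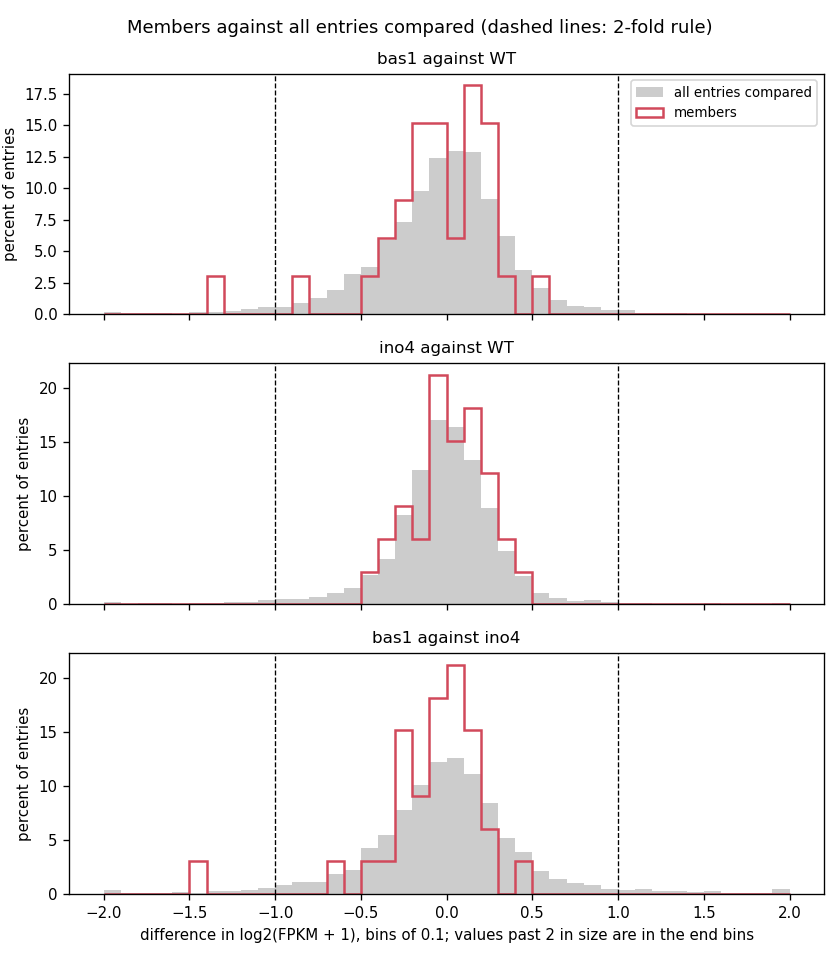
Percent of entries by difference in log2(FPKM + 1) in bins of 0.1, for all 6153 entries compared (grey) and the 33 members (line), in the 3 comparisons. Members sit around 0 as all entries do, with CPS1 alone past the dashed 2-fold lines, at -1.32 in bas1 against WT and -1.43 in bas1 against ino4.

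CPS1 encodes the vacuolar carboxypeptidase S, which removes C-terminal residues from peptides (table position sacCer2 chromosome X, 97731 to 99461). Its FPKM was 215 in WT, against 85.9 in bas1 and 233 in ino4. The level in bas1 was thus 2.51-fold below WT and 2.71-fold below ino4, while ino4 and WT lay close together. Of all entries compared, 0.98% had a lower difference in bas1 against WT. No other entry of the table overlaps CPS1, and its length of 1731 bp is that of the RefSeq gene.

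The other 5 proteases did not share this difference. PRB1, which encodes proteinase B, the main serine protease of the vacuole, had 4079.9 FPKM in WT, against 4843 in bas1 and 4732 in ino4. PEP4, the gene of proteinase A at the head of the activation cascade, had 2057 in WT, against 2271 in bas1 and 2166 in ino4. Both were higher in either mutant than in WT by 1.19-fold or less, though under quantile normalization PRB1 in bas1 was at 0.68 and PEP4 in ino4 at -0.03.

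PRC1, which encodes carboxypeptidase Y, had 1705 FPKM in WT, against 1558 in bas1 and 1820.4 in ino4. APE3, for the aminopeptidase Y, had 1071 in WT, against 1251 in bas1 and 1280.3 in ino4. LAP4, whose product Ape1 is both a protease and the cargo of the selective route, had 139.8 in WT, against 137 in bas1 and 161 in ino4. All 6 member proteases were higher in ino4 than in WT, against 49.4% of all entries, by differences of 0.07 to 0.26, except for PEP4 under quantile normalization. Their median of 0.16 equals, to 2 decimals, the median absolute difference over all entries. Vacuolar enzyme genes outside the name rule did not all share this direction in ino4. DAP2 and ATG42 (YBR139W in the table) lay at -0.08 and -0.09, AMS1 lay near 0 at -0.003, and PHO8 shared it at 0.22.

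Transcripts of the Atg8 and Atg12 conjugation systems were mixed within the same pathway. ATG8 (chromosome II, 80375 to 80728), whose product coats the membrane and binds cargo receptors, had 5213 FPKM in WT, against 4135 in bas1 and 5210.5 in ino4. It was the highest member in WT and ino4 and second to PRB1 in bas1, where it was 1.26-fold below WT. The difference of -0.33 became -0.13 under quantile normalization. ATG8 has a short entry of 354 bp, and in bas1 the 794 entries from 300 bp to under 600 bp had a median of -0.14, against 0.05 for the 3799 entries of 1000 bp and over. The part of entry length in the value of ATG8 was not tested.

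ATG5 (chromosome XVI, 271309 to 272193), the acceptor to which Atg12 is joined, had 128 FPKM in WT, against 71.9 in bas1 and 101 in ino4. It was 1.78-fold lower in bas1 than in WT, the second largest difference of the members, and short of the 2-fold rule. Of all entries, 3.54% had a lower difference in that comparison. Its partner in the conjugate was nearer to WT, with ATG12 at 57.4 in WT, against 54.1 in bas1 and 54.4 in ino4.

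ATG16, whose product holds the Atg12-Atg5 conjugate at the membrane, had 71.6 FPKM in WT, against 62.7 in bas1 and 53.6 in ino4. Its difference in ino4 of -0.41 was the lowest of any member there. The ATG16 entry overlaps another, YMR158W-B, and strand use in the counting is not given, so its value may hold reads of either. ATG10, the gene of the enzyme that joins Atg12 to Atg5, had 16.0 in WT, against 19.8 in bas1 and 22.8 in ino4. Its difference in ino4 of 0.49 was the highest of any member there, at the lowest level.

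Among the enzymes that handle Atg8, ATG3, the gene of the lipid-conjugating enzyme, had 242 FPKM in WT, against 273 in bas1 and 198 in ino4. At 0.46 it had the largest positive difference of the members between bas1 and ino4. ATG7, encoding the activating enzyme shared by both systems, had 221 in WT, against 232 in bas1 and 238 in ino4. ATG4, whose protease product trims Atg8 and releases it again, had 150.3 in WT, against 175 in bas1 and 155 in ino4. Of the 8 conjugation genes 4 were higher and 4 lower in bas1, where 50.6% of all entries were higher. In ino4 3 were higher and 5 lower, where 49.4% of all entries were higher.

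The induction complex showed no common direction. ATG1, the protein kinase gene, had 289 FPKM in WT, against 323 in bas1 and 288 in ino4. ATG13, encoding the regulatory subunit that nutrient signals act on, had 160.4 in WT, against 157 in bas1 and 146 in ino4. The levels of both were close across genotypes, within 1.12-fold for ATG1 and 1.10-fold for ATG13. ATG17, the scaffold used in starvation, had 57.8, 51.3 and 62.6 in WT, bas1 and ino4. ATG11, the scaffold used in selective autophagy, had 43.7, 57.4 and 54.1, and was higher in bas1 by 0.39 and in ino4 by 0.30. ATG29, which works with Atg17, had 58.9, 46.1 and 50.03, but its entry of 1740 bp overlaps SET6 and is longer than the 642 bp of the RefSeq gene, so its value may hold reads of SET6.

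Genes for Atg9 vesicles and lipid transfer were higher in bas1 than in WT in 5 of 6 cases, against 50.6% of all entries, with a median of 0.18. Of the 6, 5 have entries over 1000 bp, a class with a median of 0.05 in bas1. ATG18 (chromosome VI, 194800 to 196302), whose product binds phosphoinositides on the growing membrane, had 77.7 FPKM in WT, against 111 in bas1 and 97.3 in ino4. This was 1.43-fold higher in bas1, the highest difference of the members at 0.51, and 0.32 in ino4. ATG9 itself, the membrane protein of the vesicles, had 71.9 in WT, against 68.5 in bas1 and 69.8 in ino4, the narrowest range of all members at 1.05-fold. ATG2, for the lipid transfer protein that works with Atg18, had 20.8, 23.8 and 22.8.

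ATG21, a relative of ATG18, had 128 FPKM in WT, against 133 in bas1 and 136 in ino4. ATG23, needed for Atg9 transport, had 142 in WT, against 159.9 in bas1 and 129.98 in ino4, and ATG27, with a like role, had 274, 325 and 296. In ino4, 4 of these 6 genes were higher, against 49.4% of all entries, and 2 lower, with a median of 0.10. The 2 members of the lipid kinase complex went in opposite directions in each mutant. VPS30, the yeast counterpart of Beclin, had 101 FPKM in WT, against 111 in bas1 and 108 in ino4, and ATG14, which directs the kinase to autophagy, had 46.1, 38.8 and 44.3.

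Of the 4 members grouped here as receptors and cargo factors of selective delivery, 4 were lower in bas1 than in WT, against 49.4% of all entries, with a median of -0.22. ATG11, the selective scaffold placed with the induction complex above, was higher, at 0.39. Other genes of this role fell outside the name rule and did not share 1 direction in bas1. ATG32, ATG33 and ATG40 were higher, at 0.48, 0.09 and 0.15, and ATG34 and ATG36 were lower, at -0.01 and -0.34. ATG19, the receptor for Ape1, had 159.6 FPKM in WT, against 119.9 in bas1 and 184 in ino4. It was 1.33-fold lower in bas1 than in WT and 1.54-fold lower than in ino4, and its cargo gene LAP4 lay at -0.03 in bas1. ATG20, a sorting nexin gene, had 75.8, 61.6 and 71.4 in WT, bas1 and ino4, and VAC8, encoding a vacuole membrane protein that tethers the machinery, had 77.8, 72.7 and 73.5. ATG26, a sterol glucosyltransferase gene whose role in peroxisome breakdown is known from Pichia pastoris, had 57.3, 51.9 and 47.4. In ino4, 3 of these 4 were lower, against 50.6% of all entries, with ATG19 higher at 0.21.

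Of the genes that act on autophagic bodies inside the vacuole, ATG15, the lipase gene, had 103 FPKM in WT, against 94.2 in bas1 and 114 in ino4. ATG22, for an exporter of amino acids from the vacuole, had 92.4 in WT, against 78.0 in bas1 and 73.7 in ino4. Both were lower in bas1, by 0.13 and 0.24 in size, and only ATG22 was also lower in ino4.

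**Figure D3:**
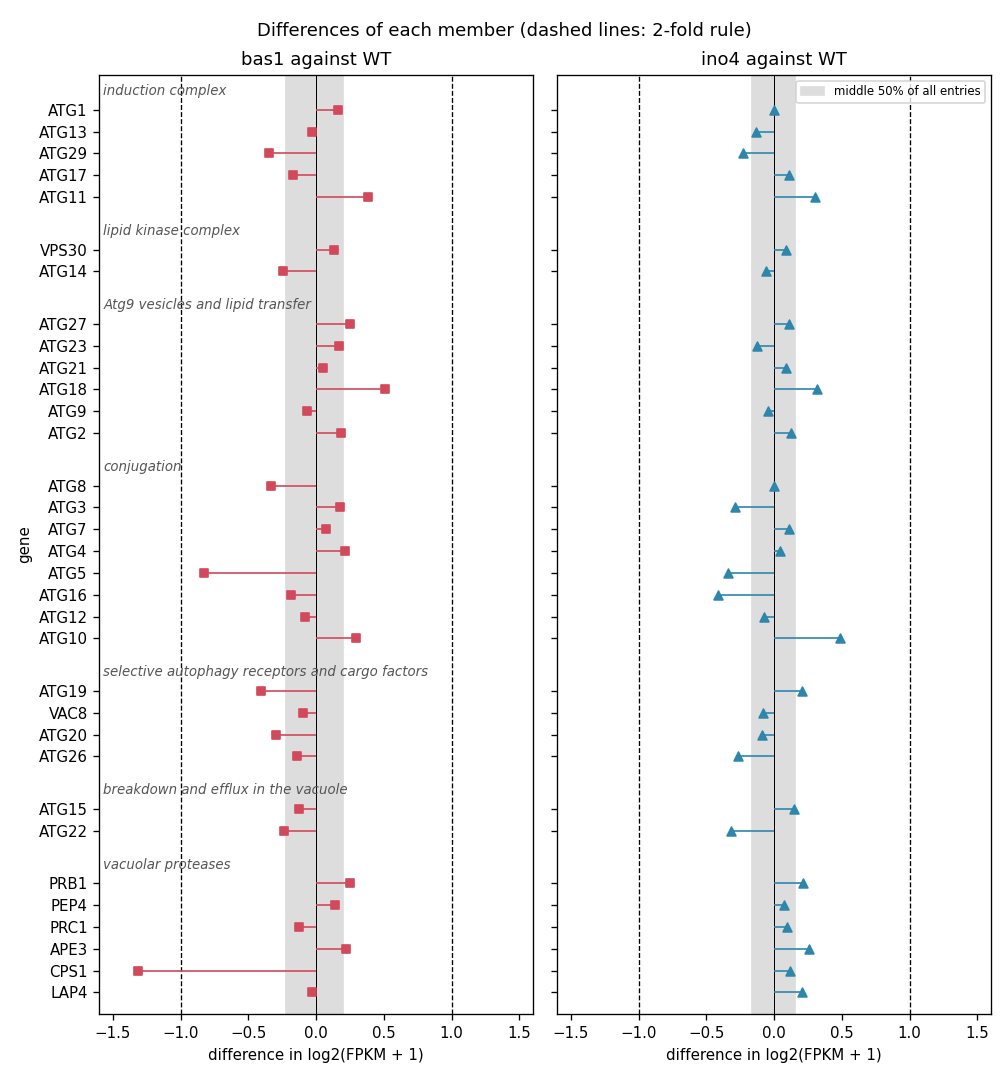
Difference in log2(FPKM + 1) of each member from WT, in bas1 (left) and ino4 (right), by role, with the middle 50% of all entries shaded and the 2-fold rule dashed. CPS1 at -1.32 in bas1 is the only member past a dashed line, followed by ATG5 at -0.83.

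In the order of levels, 5 of the 33 members held the same place in all 3 genotypes. The highest 5, which stand apart above 1000 FPKM, were shared by all genotypes, and of the lowest 5, 3 were shared. The largest move against WT was 9 places of 33, by CPS1, from place 10 in WT to 19 in bas1. In ino4 no member moved by more than 4 places.

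Some genes of the pathway stand in the table under other names and so fell outside the name rule. Of 9 genes looked for by synonym 8 were matched, and 0 of these were at least 2-fold apart from WT in either mutant. Over all entries the shares were 0.975% higher and 2.34% lower in bas1, and 0.683% and 1.76% in ino4. With 8 genes a count of 0 lies near these shares. ATG34 (YOL083W in the table), a paralog of ATG19 that serves another vacuolar enzyme, had 802 FPKM in WT, against 796 in bas1 and 842 in ino4, a higher level than that of ATG19 on this per-length scale, from an entry that overlaps another. ATG38 (YLR211C), a subunit of the lipid kinase complex, had 112 in WT, against 65.97 in bas1 and 95.7 in ino4, a difference of -0.75 in bas1. ATG32 (ECM37), the receptor for mitochondria, had 241, 336 and 247, a difference of 0.48 in bas1.

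Of 13 further partners of the pathway, such as the kinase gene VPS34 and the fusion genes VAM3 and YPT7, 0 were at least 2-fold apart in any comparison. Their differences ran from -0.53 to 0.33 in bas1 and from -0.22 to 0.16 in ino4. The 27 nutrient signalling and transcriptional regulators, among them TOR1, RIM15 and UME6, also had 0 at least 2-fold apart. The medians of these regulators were -0.03 in bas1 and 0.03 in ino4. Over all entries, 0.975% were at least 2-fold higher and 2.34% lower in bas1, and 0.683% and 1.76% in ino4. Between the mutants 2.78% lay each way. With 13 and 27 genes, counts of 0 lie near these shares. UME6, the gene of a repressor that acts on ATG8 in growing cells, had 139 FPKM in WT, against 100.5 in bas1 and 122 in ino4. The regulators' values ranged from -0.57 to 0.55 in bas1.

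Genes that inhibit, sort or accompany the vacuolar proteases were mostly lower in bas1. Among the 7 of them, PAI3 and PBI2 passed the 2-fold rule as lower than in WT, against 2.34% of all entries, and 6 were lower by any amount, against 49.4%, with a median of -0.41, against 0.01 over all entries. In ino4 0 were at least 2-fold lower, against 1.76% of all entries, and 0 higher, against 0.683%. By any amount 5 were lower in ino4, against 50.6%, and the median was -0.08.

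PAI3, which encodes the inhibitor of proteinase A, had 2677 FPKM in WT, against 1305 in bas1 and 2148 in ino4. PBI2, which encodes an inhibitor of proteinase B, had 443 in WT, against 215 in bas1 and 328 in ino4. Both lay just past the 2-fold rule in bas1, at -1.04 each, while PEP4 and PRB1, the genes of the enzymes they inhibit, lay at 0.14 and 0.25. Under quantile normalization PAI3 was at -0.96, short of the rule.

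The PAI3 and PBI2 entries are only 207 and 228 bp long. The 220 entries under 300 bp had a median of -0.31 in bas1, and 13.6% of them were at least 2-fold lower, so short entries as a class moved the same way. The part of length in the values of both inhibitors was not tested. TFS1, of 660 bp, whose product inhibits carboxypeptidase Y, had 324 FPKM in WT, against 244 in bas1 and 386 in ino4. DAP2, for a dipeptidyl aminopeptidase of the vacuole membrane, had 109.7 in WT, against 67.5 in bas1 and 104 in ino4, and its entry overlaps another. PHO8 and AMS1, for the vacuolar alkaline phosphatase and mannosidase, lay at 0.01 and -0.08 in bas1.

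**Figure D4:**
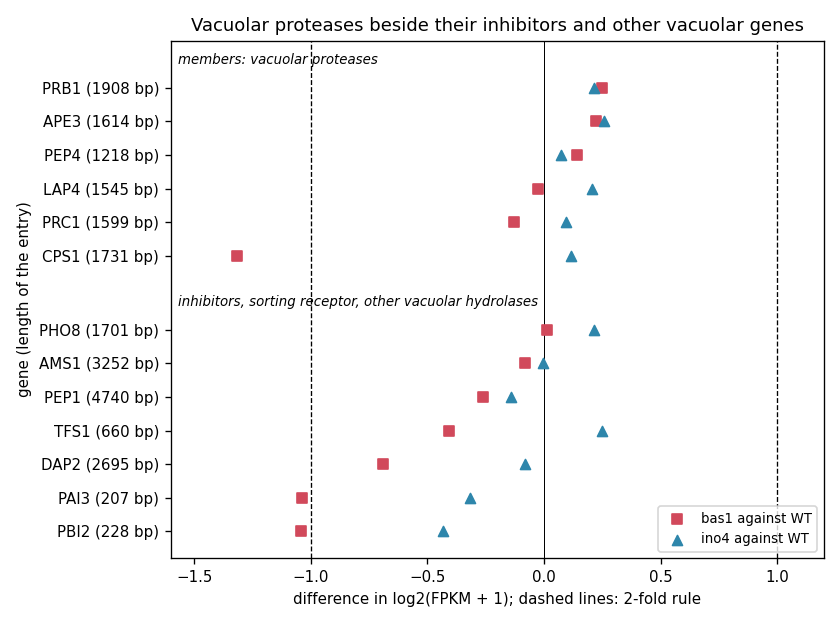
Difference in log2(FPKM + 1) from WT in bas1 (squares) and ino4 (triangles) for the 6 member proteases and 7 genes that inhibit, sort or accompany them, with entry lengths and the 2-fold rule dashed. In bas1 CPS1, PAI3 and PBI2 lie past the line at -1, at -1.32, -1.04 and -1.04, and PRB1, APE3 and PEP4 lie above 0.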

How the data were processed

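Cultures spent 13.5 to 14 h at 30 °C, per the labels' protocols, in 1% yeast extract, 2% peptone and 1% potassium acetate before the move to 2% potassium acetate, and each sample held 15 OD units. STAR, Cufflinks and sacCer2 are named in the submitters' processing notes. The authors deposited FPKM values in 1 combined column per genotype, per the file headers. Strand use is not given in the sources used here, nor are depth and the way samples were combined. FPKM times length was checked for whole reads. In WT 14.9% of 500 low values were whole within 0.05 reads at the best unit, against 10% by chance for a fixed unit, so reads were not recovered and no intervals are given.

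Values were taken as log2(FPKM + 1), a pseudocount of 1 that understates the change of low genes, and subtracted with no further scaling in Python 3.11.15 with pandas 2.3.3. Folds are ratios of FPKM. The planned limma test needs values per sample and was not made. Roles and gene names came from lists chosen, like the members, with earlier results of these data known. All members could be named. Levels in every genotype were to be given for those at least 2-fold apart, the 3 highest and 3 lowest in difference or level, and the core genes. In practice all 33 are given. Synonyms and promoters came from RefSeq R64 by name, and 33 of 33 promoters were matched. Table positions are sacCer2, counted from 1. Of the member entries, 31 of 33 had the length of the RefSeq gene and 2 overlap another entry.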

Additional observations from a re-analysis of the deposited data

How the results depend on the processing

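Alternatives were pseudocounts of 0.1 and 5, other filters, 3 scalings, a 1.5-fold rule, a minimum entry length of 300 bp and leaving out overlapping entries. The other filters and the 300 bp minimum kept the same 33 members, so member counts and medians could not change under them. With these included, member counts and medians kept their values (within 1.5 times for counts, 0.1 for medians) in 85 of 87 recomputations. The 2 others came from the 1.5-fold rule, with 2 members lower in bas1 than in WT (CPS1 and ATG5) and 2 lower in bas1 than in ino4 (CPS1 and ATG19). The limit of 0.1 is wider than the medians themselves, at -0.03 in bas1, 0.07 in ino4 and -0.01 between the mutants. The count of 85 therefore cannot show that the medians are stable. In ino4 the median was 0.04 under quantile normalization. CPS1 in bas1 against WT ran from -1.28 with a pseudocount of 5 to -1.32. Single genes moved by over 0.1 only under quantile normalization, among them PRB1 in bas1 against WT, from 0.25 to 0.68, and against ino4, from 0.03 to 0.54. PRC1 moved from -0.13 to -0.03 in bas1 against WT. Signs turned for ATG1 and PEP4 (quantile normalization) and ATG8 (trimmed mean of log ratios) in ino4 against WT, and for APE3 between the mutants.

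Over all entries, a pseudocount of 5 gave 33 higher and 91 lower in bas1 (60 and 144 as reported) and 16 and 56 in ino4 (42 and 108). The 1.5-fold rule gave 245 and 451 in bas1, 143 and 284 in ino4, and 418 and 506 between the mutants (171 each as reported). Without overlapping entries 22 were higher in ino4. No paired analysis was possible because the table holds 1 combined value per genotype, and leaving out a sample was not run for the same reason. The cause was not tested for any of these shifts.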
